A study of Phanerodontia chrysosporium with 18 samples.

Results

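The 10 lignin peroxidase genes of the white-rot fungus Phanerochaete chrysosporium, named LiPA to LiPJ in the curated annotation, were followed on wood between 40 h and 96 h after inoculation. They were taken from the deposited table by protein number, and are 10 of its 13602 gene models. Strain RP-78 was grown on thin sections of white spruce sapwood in agar that held nitrogen and mineral salts but no carbon source for the fungus, so that wood was the carbon supply. Messenger RNA was sequenced from 3 pools of 20 sections at 96 h and 3 such pools at 40 h. All 6 pools came from this 1 strain, and age on wood is the difference between the groups. Each pool gave 1 library, read in 3 lanes, and the lanes of a library were averaged and counted once. Values are RPKM, reads per kilobase of gene model, scaled to the size of the library, so members can be compared with each other as well as between times. The comparison between members has a limit, since no source used here states how reads common to similar peroxidase genes were counted. RPKM give shares of the sequenced RNA, and the amount of fungus on the sections was not part of them.

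Lignin peroxidases are secreted heme enzymes. Hydrogen peroxide oxidizes the heme, which then withdraws electrons from nonphenolic aromatic units of lignin, directly or through veratryl alcohol, a small aromatic alcohol that the fungus itself makes. In P. chrysosporium they belong to secondary metabolism and are classically known from cultures starved of nitrogen or carbon. LiPA encodes the isozyme known as H8 and LiPD the isozyme known as H2. Most members lie together in 1 gene cluster, and LiPD and lipF are known to lie apart from it.

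All 10 models carried the plant, fungal and bacterial heme peroxidase domain (PF00141) in the deposited annotation. It spanned residues 49 to 286 in LiPD, 48 to 285 in LiPA, LiPB, LiPE, lipF and lipG, 47 to 284 in LiPC and LiPJ, 48 to 281 in LiPI and 48 to 290 in lipH. For 9 members the annotation listed a signal peptide with a probability of 1, as a secreted enzyme needs. A separate prediction in the annotation placed its cleavage at residue 22. The exception was LiPJ, for which the table lists no signal peptide prediction.

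Read totals are not among the sources used here, and no counting interval was formed. The smallest values above the floor at 41 sparse models put the 96 h libraries at 0.48, 0.503 and 0.709 of the depth of 40 h library 1, and the other 40 h libraries at 0.717 and 0.941. These are rough estimates. Every member was above the floor in all 18 lanes, and the lowest value was 2.35 RPKM. The RPKM of all models summed to between 779148 and 788009 in the 96 h libraries and between 827199 and 838614 in the 40 h libraries. Nothing in the sources used here says whether the pools came from separate cultures, and the p-values rest on how far these 6 libraries differed.

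The comparison of 96 h with 40 h addresses how RNA levels differed between these ages on wood. Lignin oxidation itself is not among the values. Of the 10 members, all of which passed the filter on low values, 9 rose and none fell in limma's moderated test on log2(RPKM + 1), with Benjamini-Hochberg adjustment over 11725 models at a threshold of 0.05. Change was common: 26.3% of all tested models were called higher, 35.6% lower and 62% in either direction, so a call by itself was no rare event. The median log2 fold change was 4.67 over the members and -0.08 over all tested models. LiPD had the largest log2 fold change of all 11725 tested models and LiPE the second largest. LiPB stood at rank 7, lipG at 24, LiPA at 27 and LiPC at 61. A log2 fold change above 4 was reached by 63 models in all (0.537%), and 6 of them are lignin peroxidases. In 9 members the 3 libraries at 96 h all lay above the 3 at 40 h, which held for 29.5% of all tested models, and no member had them all below, which held for 39.8%. Within the family, a strongly raised set (LiPE, LiPD, LiPB, lipG, LiPA and LiPC) stood apart from a weakly raised set (LiPJ, LiPI and lipF). lipH did not pass. Among all tested models LiPJ stood at rank 477, LiPI at 896 and lipF at 1668. Adding 1 to RPKM shrinks changes at low levels: the log2 fold change of LiPI was 1.07, and 1.29 with 0.1 added instead.

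**Figure D1:**
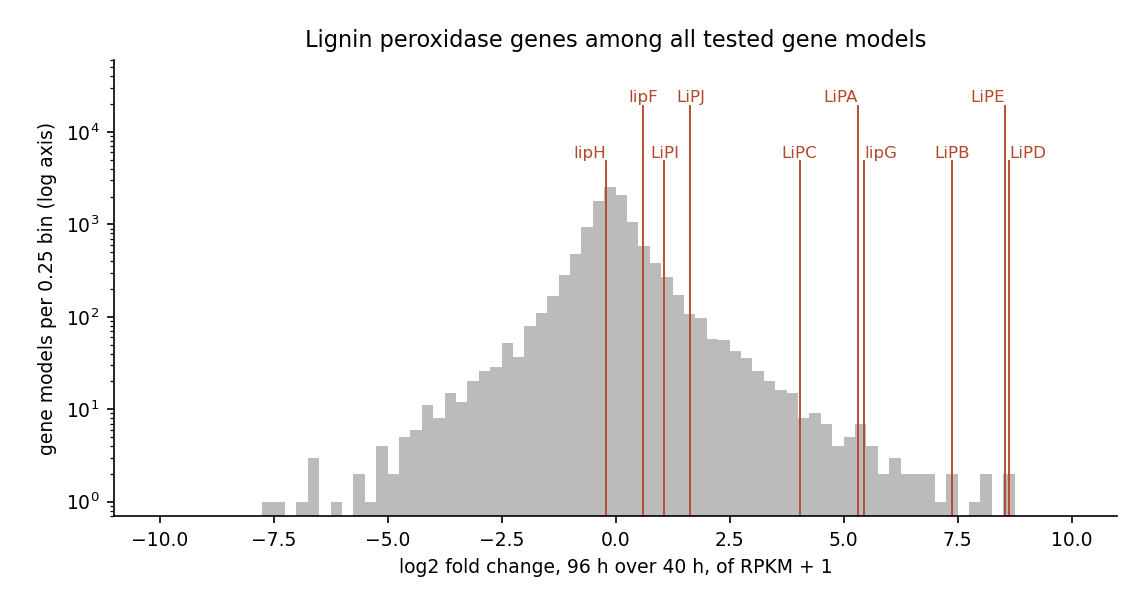
Grey bars count the 11725 tested gene models by log2 fold change of RPKM + 1, 96 h over 40 h (log vertical axis), and red lines mark the 10 lignin peroxidase genes. LiPD and LiPE sit at the right end of the distribution at 8.63 and 8.54, and lipH at -0.21 lies near its centre.

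LiPE (1716042) was the most abundant member at 96 h. It had 7948, 5362 and 6089 RPKM in 96 h libraries 1, 2 and 3, against 16.2, 16.9 and 15.5 RPKM at 40 h. Every 96 h library was at least 318 times the highest 40 h library. Only 3 of the 13602 models had a higher mean level at 96 h, whereas at 40 h LiPE ranked 6183. The log2 fold change was 8.54 (SE 0.14, adjusted p = 2.08e-08).

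LiPD (1386770) came second. It had 5180, 2100 and 3316 RPKM in 96 h libraries 1, 2 and 3, against 7.16, 8.01 and 6.89 RPKM at 40 h. The 96 h libraries differed among themselves by up to 2.47 times, and library 1 was the highest. The mean was 480 times that at 40 h, and its place among all models was 18 at 96 h and 8286 at 40 h.

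LiPB (1716776) had 428, 801 and 911 RPKM at 96 h, against 2.98, 3.33 and 2.96 RPKM at 40 h. It was next to last of the family at 40 h and at place 3 at 96 h, with a ratio of means of 231 (log2 fold change 7.38, SE 0.25, adjusted p = 2.78e-07). lipG (2918435) had 252, 501 and 536 RPKM at 96 h, against 6.86, 11.6 and 7.18 RPKM at 40 h. Both genes were lowest in 96 h library 1 and highest in library 3. The ratio of LiPB to lipG was 1.70, 1.60 and 1.70 in the 96 h libraries, against 0.435, 0.287 and 0.412 in the 40 h libraries, where library 2 was the lowest.

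LiPA (2989894) was the steadiest of the strongly raised genes. It had 164, 200.5 and 193 RPKM at 96 h, against 3.62, 3.61 and 3.89 RPKM at 40 h, a ratio of means of 50.2 (log2 fold change 5.31, SE 0.09, adjusted p = 2.08e-08). Its 96 h libraries differed by 1.22 times, close to the 1.17 times of the median tested model on the RPKM + 1 scale.

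LiPC (3032409) was the least steady. It had 46.3, 293 and 106 RPKM in 96 h libraries 1, 2 and 3, against 6.02, 5.53 and 6.29 RPKM at 40 h. The lowest 96 h library was still 7.37 times the highest at 40 h, so the times did not overlap. The log2 fold change was 4.04 (SE 0.55, adjusted p = 0.000405). It was 3.36 without 96 h library 2 and 4.67 without 96 h library 1. The excess in library 2 stood in each of its lanes, at 291 to 295 RPKM, against 45.7 to 46.7 RPKM in the lanes of library 1. Only 0.111% of tested models differed more widely among the 96 h libraries.

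LiPJ (3043032) shared the high value in library 2. It had 13.4, 32.1 and 15.5 RPKM at 96 h, against 5.11, 5.38 and 5.61 RPKM at 40 h (log2 fold change 1.64, SE 0.28, adjusted p = 0.00125). LiPI (3032425) was low at both times, at 6.77, 6.34 and 7.41 RPKM at 96 h against 2.76, 2.91 and 2.52 RPKM at 40 h. lipF (2910310) had 5.77, 5.84 and 5.21 RPKM at 96 h, against 3.21, 3.42 and 3.44 RPKM at 40 h, and was the lowest member at 96 h. LiPI and lipF passed the test with ratios of means of only 2.50 and 1.67, their times did not overlap, and both stayed below the level of the median gene model, which was 12.6 RPKM at 96 h.

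lipH (2918661) had 14.8, 17.5 and 13.8 RPKM at 96 h, against 17.5, 17.3 and 18.8 RPKM at 40 h. It was the most abundant lignin peroxidase in every 40 h library. At 96 h library 2 fell among the 40 h values and the other libraries lay below them. The log2 fold change of -0.21 (SE 0.09) had an adjusted p of 0.0869. Without 96 h library 2 it was -0.30 and passed (adjusted p = 0.0057), and after upper quartile scaling it also passed (adjusted p = 0.0443).

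**Figure D2:**
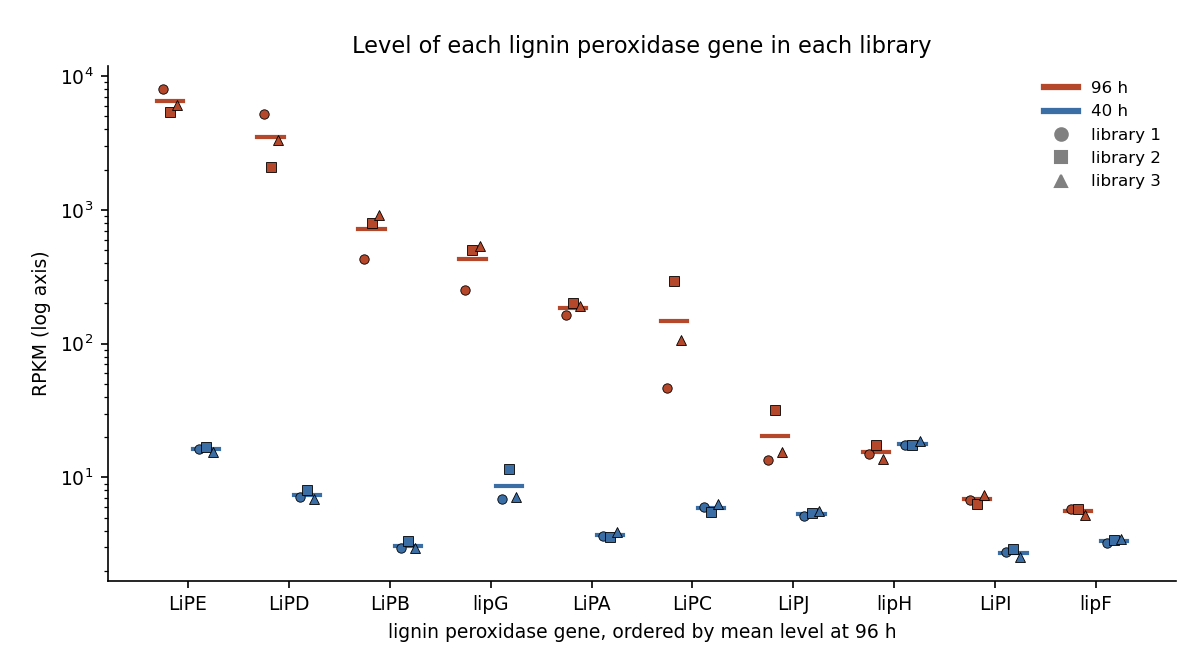
RPKM (log axis) of each lignin peroxidase gene in each library, 96 h in red left of 40 h in blue, with 1 symbol per library and a bar at the mean of 3. The genes span 5.61 (lipF) to 6467 RPKM (LiPE) in mean level at 96 h and 2.73 (LiPI) to 17.9 RPKM (lipH) at 40 h, and the 2 times overlap in lipH alone.

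The order of members was different at the 2 times. At 96 h it ran LiPE, LiPD, LiPB, lipG, LiPA, LiPC, LiPJ, lipH, LiPI and lipF. LiPE was above LiPD, LiPB above lipG and lipG above LiPA in all 3 libraries, although the ranges of LiPB and lipG overlapped between libraries. LiPA and LiPC could not be ranked, since LiPA was higher in 2 libraries and LiPC in library 2. LiPJ and lipH could not be ranked either. At 40 h the order ran lipH, LiPE, lipG, LiPD, LiPC, LiPJ, LiPA, lipF, LiPB and LiPI. There lipH was above LiPE in all 3 libraries by lane averages, with ranges of libraries that did not overlap. The gap was narrow in library 2, at 17.3 against 16.9 RPKM. In lane 3 of that library LiPE was the higher, at 17.2 against 16.7 RPKM. The ranges of lipG and LiPD, of LiPC and LiPJ, and of lipF and LiPB overlapped.

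Summed over the family, lignin peroxidase transcripts reached 14059, 9318 and 11193 RPKM in 96 h libraries 1, 2 and 3, against 71.4, 78.0 and 73.1 RPKM at 40 h. The sum was 155 times as high at 96 h (exact two-sided permutation p = 0.1, the smallest that 3 against 3 libraries allow). Without LiPD and LiPE the sum was 1525 ± 515 RPKM at 96 h and 50.6 ± 2.52 RPKM at 40 h (SD, n = 3), a ratio of 30.1. The rise in the sum thus lay mostly in LiPD and LiPE, and the remaining members also gave a sum whose libraries did not overlap between the times.

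The make-up of the family shifted toward these genes. LiPE held 56.2% ± 1.60 of summed lignin peroxidase RPKM at 96 h and 21.8% ± 0.724 at 40 h, and LiPD 29.7% ± 7.15 and 9.91% ± 0.434 (SD, n = 3). lipH held 0.139% ± 0.0435 at 96 h and 24.1% ± 1.78 at 40 h. LiPE varied little between 96 h libraries, at 56.5%, 57.5% and 54.4%, while LiPD ranged from 22.5% to 36.8%. Of the 10 shares, LiPD and LiPE were higher and lipF, lipG, lipH, LiPA, LiPC, LiPI and LiPJ lower at 96 h in all libraries, each with an exact permutation p of 0.1 (0.111 after Benjamini-Hochberg adjustment over the 10). The share of LiPB overlapped between the times, at 6.59% ± 3.08 at 96 h and 4.16% ± 0.115 at 40 h (exact p = 0.4). A lower share is not a lower level: 6 of those 7 genes rose in RPKM.

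**Figure D3:**
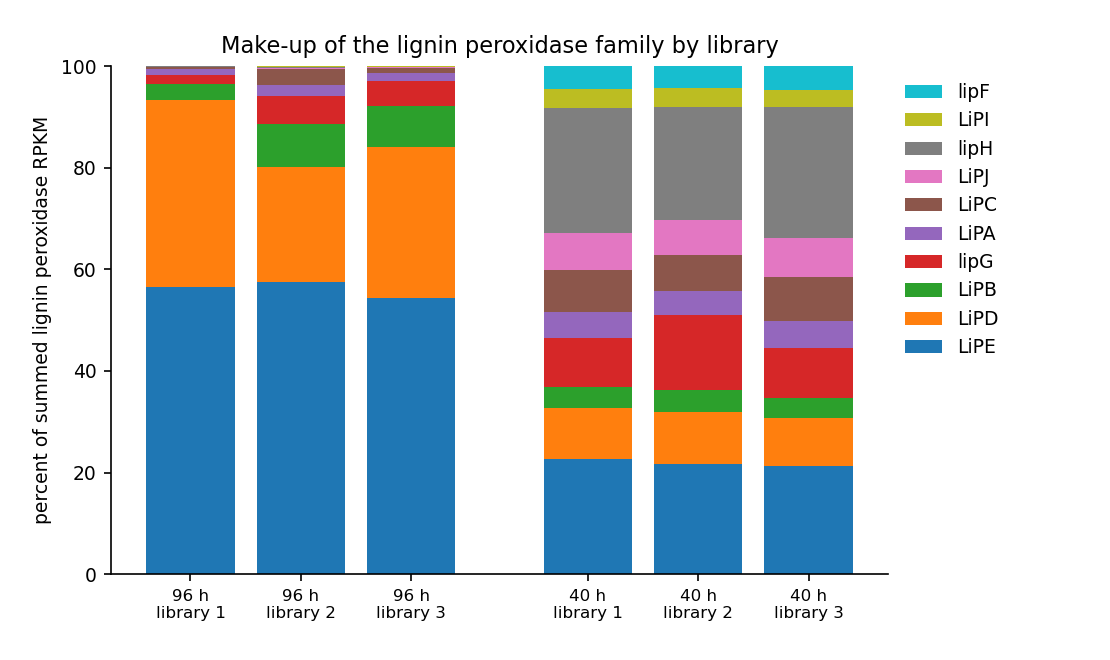
Percent of summed lignin peroxidase RPKM held by each gene, 1 stacked bar per library, 96 h left of 40 h. LiPE (blue) and LiPD (orange) together fill 80.1% to 93.4% of the 96 h bars and 30.7% to 32.7% of the 40 h bars, where lipH (grey) is the widest band.

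The 96 h libraries did not rank the members alike. Library 1 was the highest of its time for LiPD and LiPE and the lowest for LiPA, LiPB, LiPC, lipG and LiPJ. Library 2 was the lowest for LiPD and LiPE, and also for LiPI, and the highest for LiPA, LiPC, LiPJ, lipF and lipH. So the libraries differed in the balance between members and not only in the level of the family, and no single scaling factor per library would bring the members together. LiPB, LiPC, LiPD, lipG and LiPJ each differed by more than 2-fold between 96 h libraries. Lanes of the same library agreed far better: the coefficient of variation between lanes at 96 h was 0.511% for LiPD and 1.31% for LiPC, and between libraries 43.9% and 86.8%. For lipF, LiPI and lipH, the lowest in level, lanes varied by 8.66%, 7.70% and 6.27% and libraries by 6.11%, 7.86% and 12.6%. For lipF and LiPI the lanes of a library thus spread about as much as the libraries did.

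At 40 h the libraries lay close together. Only lipG stood out, with 10.7 to 13.2 RPKM in the lanes of library 2, against 6.62 to 7.31 and 6.63 to 7.50 RPKM in those of libraries 1 and 3. The other 9 members differed by at most 1.16 times between 40 h libraries. No source used here states how reads common to similar peroxidase genes were counted, which leaves the split between members uncertain.

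**Figure D4:**
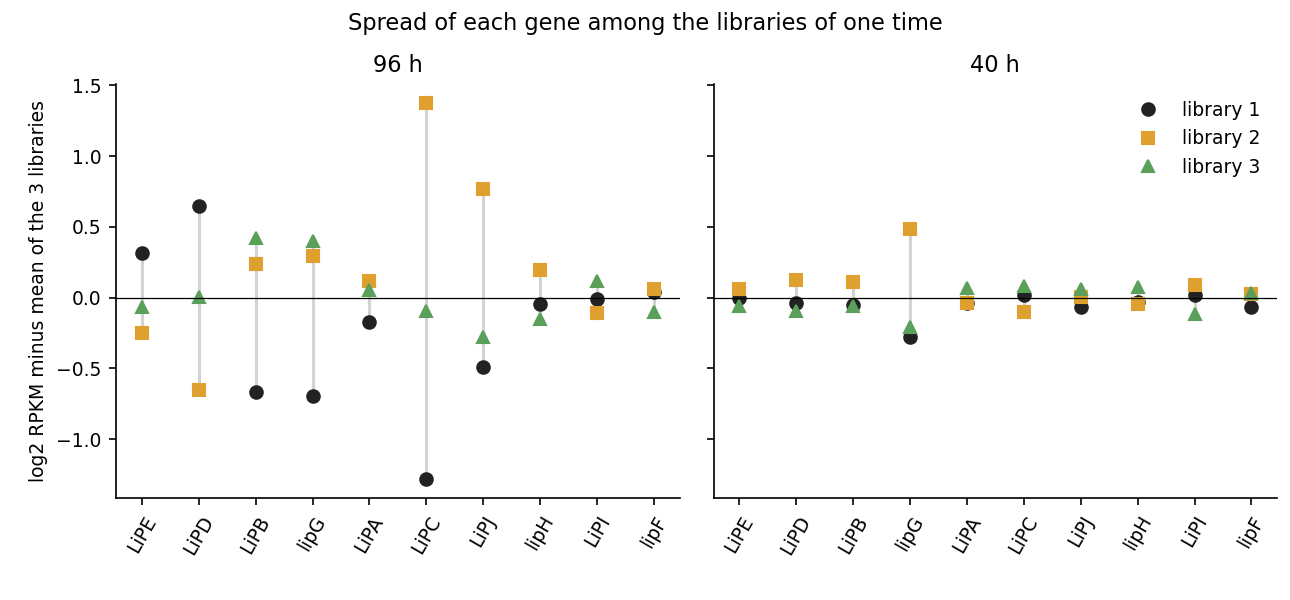
Deviation of each library from the mean of its time, in log2 RPKM, for each lignin peroxidase gene at 96 h (left) and 40 h (right), with 1 symbol per library. At 96 h library 1 lies above the mean in LiPE and LiPD and below it in LiPB, lipG, LiPA, LiPC and LiPJ, and at 40 h the only wide gene is lipG.

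The authors' deposited table lists its own averages, ratios and p-values. Its ratios of 96 h to 40 h were 451 for LiPD, 394 for LiPE and 19.0 for LiPC, the last below the 24.9 of the arithmetic means used here. For 99.8% of 11666 models with a mean above 1 RPKM, the 96 h average in the authors' deposited table lay within 0.1% of the geometric mean of the 9 lanes. By the P value of the authors' deposited table, taken as listed without adjustment here, lipH was lower at 96 h (P = 0.0123). The t statistics in the authors' deposited table were close to those over 3 lane means, with a median ratio of 1.04, and 3.38 times those over 3 library means. For LiPC the authors' deposited table gives a t of 92.4, where 3 lane means gave 85.2 and 3 library means 5.51. For lipH it gives -4.26, where lane means gave -3.91 and library means -2.06.

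Models most like each member in pattern were named by the root mean square distance of mean-centred log2(RPKM + 1) values over the 6 libraries. The libraries are of both times, so the distance includes the change from 40 h to 96 h. It was taken over the same library values as are given below, so a shared highest or lowest library is no separate evidence. The search took the 6291 tested models with an annotated function and left out the lignin peroxidases. For LiPD the nearest were the manganese peroxidases MnP5 (distance 0.331) and mnp1 (0.416) and glyoxal oxidase (0.681), which makes hydrogen peroxide. The same models were nearest to LiPE, at 0.339, 0.372 and 0.574. LiPD and LiPE were nearer to each other, at 0.222. MnP5 had 5774, 2802 and 5828 RPKM at 96 h, against 14.6, 17.4 and 15.1 RPKM at 40 h. At 96 h it was lowest in library 2 as LiPD and LiPE were. It was highest in library 3, whereas LiPD and LiPE were highest in library 1. For LiPB the nearest were glyoxal oxidase (0.347), a transporter (2974059, 0.408) and MnP2 (0.430). For LiPA they were transporters 3025918 (0.154) and 3023711 (0.231) and an S53 family peptidase (3076290, 0.240). For lipG they were an alcohol oxidase annotated as methanol oxidase (3004321, 0.366), cytochrome P450 3029010 (0.391) and an oxalate decarboxylase (2907675, 0.399). The member LiPA was nearer to lipG than these, at 0.360. The nearest to LiPC was the aspartic peptidase asp3 (3031920, 0.511), also highest in 96 h library 2, with 97.6, 228 and 117 RPKM at 96 h against 7.00, 5.91 and 3.97 RPKM at 40 h. It was followed by a glutathione S-transferase (2903766, 0.669) and an alpha/beta hydrolase (2060883, 0.674). LiPJ was nearest to cytochrome P450 3003571 (0.130), a glycoside hydrolase of family GH5_9 (2979836, 0.174) and a C14 family peptidase (3027522, 0.183). LiPI was nearest to a short-chain dehydrogenase (2897020, 0.0411), a monocarboxylate transporter (2901678, 0.0455) and an FAD-binding protein (132146, 0.0487). The models nearest to lipF were an F-box protein (2904240, 0.0167), a DnaJ domain protein (3036104, 0.0246) and a helicase (2965568, 0.0320). Those nearest to lipH were a G-patch protein (2981517, 0.0214), a NAF1 domain protein (3041514, 0.0326) and a catalase (3002838, 0.0349).

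Genes that work beside the peroxidases were listed by text patterns on the annotation, and calls were read against the 26.3% of all models higher and 35.6% lower. Manganese peroxidases oxidize Mn(II) to a diffusible oxidant, and 5 of 5 rose. mnp1 (8191) had a log2 fold change of 7.95 and MnP5 one of 8.09, MnP2 (3589) one of 6.87, and mnp3 (2896529) and MnP4 (2907883) changes of 1.09 and 0.49. This family, like the lignin peroxidases, thus held strongly and weakly raised members.

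Heme synthesis supplies the cofactor, and of the 7 models matched 5 rose and 1 fell. The patterns for aminolevulinate synthase and for protoporphyrinogen enzymes matched no model, so the list does not cover the whole pathway. Uroporphyrinogen decarboxylase (2899377) had 253 ± 9.73 RPKM at 96 h and 54.9 ± 3.51 RPKM at 40 h (SD, n = 3; log2 fold change 2.19, adjusted p = 2.58e-07). Porphobilinogen synthase (2971738), an early step, had 142, 125 and 136 RPKM at 96 h, against 47.8, 52.4 and 49.8 RPKM at 40 h. Ferrochelatase (3026789), which inserts the iron and was chosen after its values were seen, had a log2 fold change of 1.29. Of the coproporphyrinogen oxidase models, also chosen after their values were seen, 1 (3025787) fell and the other (2917948) had a log2 fold change of 0.09 and did not pass. The median over the list was 1.12.

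The veratryl alcohol list held phenylalanine ammonia lyase and O-methyltransferases, and 8 of 12 rose and 2 fell. The ammonia lyase (2971127), which opens the route from phenylalanine to cinnamate, had 712, 594 and 568 RPKM at 96 h, against 28.1, 26.8 and 28.2 RPKM at 40 h. The O-methyltransferase 2661209 had a log2 fold change of 6.10. Which substrates these methyltransferases act on is not in the annotation, and 1 of the 12, among the 8 that rose, is a protein repair enzyme (3027728) caught by the pattern. Leaving it out, a choice made once the matches were known, 7 of 11 rose and 2 fell. The lower calls numbered 0 without 40 h library 1 and 1 without 96 h library 1, 96 h library 3, 40 h library 2 or 40 h library 3.

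Of the oxidases that make hydrogen peroxide 3 of 14 rose and 7 fell. Calls in both directions were common among all tested models, with 26.3% higher and 35.6% lower. The alcohol oxidase annotated as methanol oxidase (3004321) rose to 6684 ± 182 RPKM at 96 h, against 139 ± 34.3 RPKM at 40 h, and the copper radical oxidase CRO2 (2970935) fell to 277 ± 29.9 RPKM, against 997 ± 56.2 RPKM. Glyoxal oxidase (11068), annotated as CRO GLOX, was not matched by the pattern. It was added after seeing the matches and had 3857, 3320 and 4299 RPKM at 96 h, against 20.2, 21.9 and 20.9 RPKM at 40 h, and with it 4 of 15 rose. CRO3, CRO4 and CRO5 are known to lie among lignin peroxidase genes in this genome, and were chosen for that after their values were seen. CRO4 (3032412) and CRO5 (3032414) fell, with log2 fold changes of -1.17 and -1.90. CRO3 (1717398) had 6.70, 7.28 and 7.47 RPKM at 96 h, against 6.99, 7.37 and 7.07 RPKM at 40 h, and did not pass (adjusted p = 0.995).

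Of the multicopper oxidases 2 of 5 rose and 2 fell, where 26.3% of all tested models were higher and 35.6% lower. mco2 (2983773) had 16.4 ± 1.74 RPKM at 96 h and 3.92 ± 0.0550 RPKM at 40 h, and the iron-oxidizing FET3 (2979932) had 21.2 ± 4.20 RPKM at 96 h and 42.2 ± 9.33 RPKM at 40 h. Of the other heme peroxidases as matched, 6 of 17 rose and 7 fell. The 7 lower calls numbered 4 without 96 h library 1 or 3 or without any one of the 40 h libraries. The list also held 4 phosphatases and 3 pre-mRNA processing proteins caught by the pattern, among them 2980086, the second most abundant model (log2 fold change -0.23). With these taken out, a choice made once the matches were known, 6 of 10 rose and 3 fell. The catalase 3006241, which breaks down hydrogen peroxide, had 5302, 5014 and 5006 RPKM at 96 h, against 1233, 1395 and 1048 RPKM at 40 h, and was the most abundant of them.

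**Figure D5:**
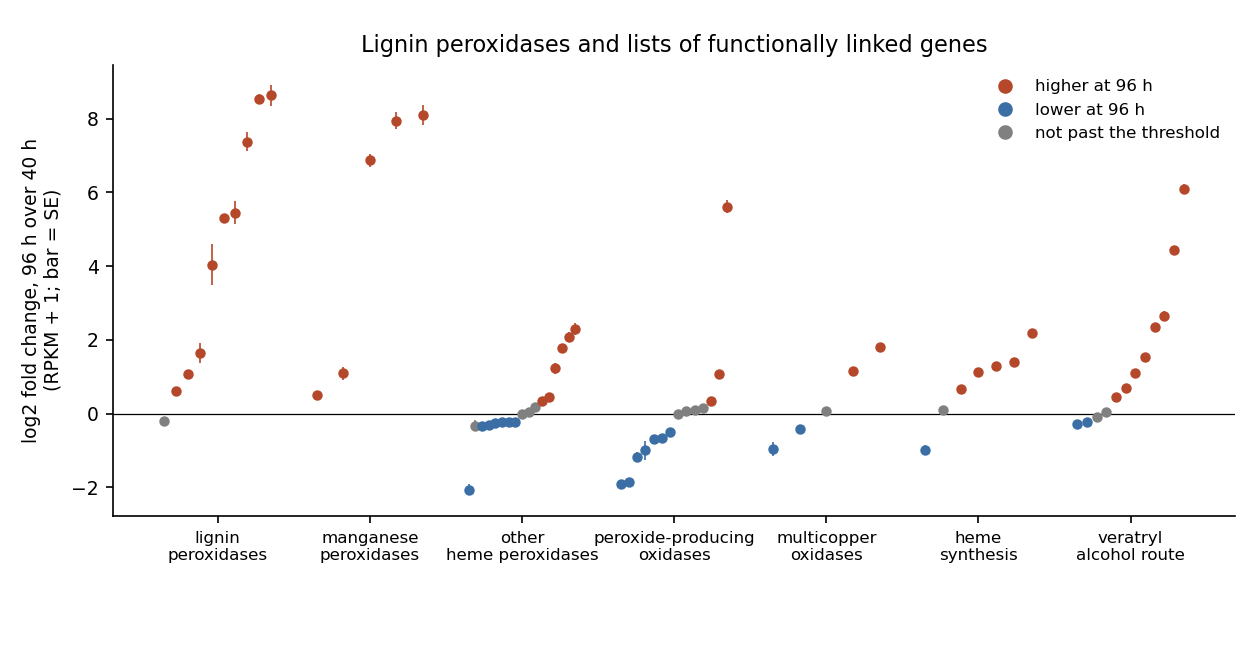
Log2 fold change of RPKM + 1, 96 h over 40 h, of each model in the lignin peroxidase family and in the 6 lists as matched by the patterns (bars, SE), coloured by call. Lignin and manganese peroxidases reach 8.63 and 8.09, heme synthesis genes at most 2.19, and peroxide-producing oxidases lie on both sides of 0.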

How the data were processed

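RPKM per lane were made and deposited by the authors for 13602 gene models, with 0.002 standing for no reads. CASAVA 1.8.2 is named in the submitters' processing notes. No source used here names the aligner, counter, genome build or annotation. The authors' deposited table also holds their average RPKM, ratio, p-value and t score per model and, per the file headers, a signal peptide probability (a fraction). Barcode number, with its own index, was taken as the library. The replicate numbers of the titles follow lanes.

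The 11725 models that reached 1 RPKM in 3 or more libraries were fitted as log2(RPKM + 1) with limma 3.58.1 in R 4.3.3 (variance trend, no block, Benjamini-Hochberg). Sums and shares were tested by exact permutation. On simulated data of 11725 models, the fit of 96 h against 40 h recovered 46 of 50 models changed 1.5-fold and 48 of 50 changed 2-fold. It made 10 false calls. The simulation raised few models, lowered none and gave both times the same spread. In the data 62% of models were called, and the median log2 SD between libraries was 0.120 at 96 h and 0.0715 at 40 h. The recovery may therefore differ in the data. Named genes were all members, the 3 nearest annotated patterns, all manganese peroxidases and the 2 most abundant models of each list; others are marked in the text as chosen after their values were seen. Members and lists were chosen with earlier results of these data known.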

Additional observations from a re-analysis of the deposited data

How the results depend on the processing

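Over 17 alternatives, all 170 values of single members kept their direction and 168 their side of the threshold, and the higher count was 9 under each. The exceptions were lipH. Changing or dropping the filter, dropping the variance trend, the block by barcode number and the threshold of 0.01 left every member's fold change as it was. Under these alternatives the direction was fixed in advance, and only the side of the threshold could move. The lower count, 0 as reported, was 1 after upper quartile scaling and 0 to 1 with a library left out. It was also 1 by the P value of the authors' deposited table, taken as listed without adjustment (chosen after seeing the data). The cause was not tested. For the 9 raised members the highest adjusted p was 0.00743, and for lipH it ranged from 0.0057 to 0.280. A pseudocount of 5 gave log2 fold changes of 0.34 for lipF and 8.07 for LiPD. Deviations of same-numbered libraries of the times had correlations of 0.136, 0.133 and -0.102, which cannot settle whether barcode numbers pair them. The numerals in the index names match other libraries. They match 96 h library 3 with 40 h library 1 (0.218), 1 with 2 (-0.097) and 2 with 3 (0.076). No block by index name was run. With a replicate block by barcode number, 9 members were higher and 0 lower, as with a block by title number on lanes. The summed difference and each share kept their direction under every alternative run. Lower calls over the lists were 12 at a threshold of 0.01, against 19; in the other heme peroxidases they were 3 at that threshold and 4 after trimmed mean scaling, against 7. In the veratryl alcohol list the 2 lower calls became 0 at that threshold, with the filter of 5 RPKM and with the block by title number, and 1 with the block by barcode number and after trimmed mean scaling. In the multicopper oxidases the 2 became 1 with that threshold or filter. At 40 h, lanes of a library varied least for LiPE (3.63%) and most for LiPJ (9.50%). LiPI, the lowest in level at that time, varied by 7.16%. Whether depth set this variation was not tested.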

Other observations

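Beyond the lignin and manganese peroxidases, 2 of the 17 models with the same heme peroxidase domain remain, named here after their values were seen. A model annotated as peroxidase (123914) fell to 34.2, 42.5 and 30.6 RPKM at 96 h, against 100.1, 92.3 and 108 RPKM at 40 h (log2 fold change -1.47, adjusted p = 2.64e-05 in limma). A model annotated as a peroxidase fragment (2911114) had 57.9 ± 7.74 RPKM at 96 h and 58.1 ± 2.72 RPKM at 40 h (SD, n = 3). Summed lignin peroxidase RPKM was 1.06, 1.17 and 0.798 times the summed manganese peroxidase RPKM in 96 h libraries 1, 2 and 3, against 1.38, 1.21 and 1.36 times at 40 h.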
